A study of Drosophila melanogaster
Mus musculus with 21 samples.

Results

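Cytoplasmic ribosomal protein genes were followed in the nuclear RNA of mouse embryonic stem cells after acute loss of a Polycomb repressive complex. They were taken by symbol, as every entry whose name begins with Rpl or Rps and a digit, together with Rpsa, Rplp0, Rplp1 and Rplp2 and without the S6 kinase genes, and each symbol was represented by its entry with the most untreated reads. This gave 77 of the 19397 symbols, or 79 of the 20633 entries, with the same symbols in all 5 tables. Of the 77, 39 encode proteins of the large subunit, 28 encode proteins of the small subunit and 6 are paralogues of subunit proteins. A further 3 symbols (Rpl37rt, Rpl34-ps1 and Rps27rt) carry the suffixes used for retrocopies or pseudogenes, and Rps19bp1 encodes a protein that binds RPS19 and is no subunit itself. Ribosomal proteins outside these 77 symbols were not analysed here, apart from Fau and Rack1.

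Ribosomal proteins are built into the subunits with ribosomal RNA in the nucleolus, and a cell needs them in matched amounts. Their genes are short, are expressed in every growing cell and share promoters whose transcripts start with a run of pyrimidines, through which mTOR and LARP1 control translation of the messages. Several of them, among them Rpl4, Rpl13a, Rps3 and Rpl7a, carry small nucleolar RNAs in their introns in mammals. Polycomb repressive complex 1, which ubiquitylates histone H2A, and Polycomb repressive complex 2, which methylates histone H3, are known for the repression of developmental genes in embryonic stem cells. Constitutive genes such as those of the ribosome are not their classical targets.

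The PRC1deg line (E14 with Tir1 at Rosa26, Ring1A-/- and AID-Ring1B) was given 500 µM auxin (indole-3-acetic acid, IAA) for 2, 4, 8 or 24 h, which sends AID-tagged RING1B for degradation, and was compared with untreated cells of the line. The PRC2deg line (E14 with Pcgf2-HaloTag and dTAG-Suz12) was given 100 nM dTAG-13 for 2 h, against untreated cells of that line. Each of the 7 groups had 3 libraries from biological replicates, 21 in all. Ring1A loss and Tir1 were present in every PRC1deg group, untreated cells included, and no auxin-treated line without the tag on Ring1B was analysed here. Each degron was followed in 1 line. Both degrons act on protein, so RNA levels do not check the depletion. Drosophila SG4 cells were mixed with the cells as a spike-in before nuclei were released. In bulk nuclei, fewer cells with a transcript and less transcript per cell cannot be told apart.

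The files hold the authors' comparisons: for each entry a length, a mean level in untreated cells, a log2 fold change (treated over untreated, with the form of a shrunken estimate) and an adjusted p. They hold no value per library and no standard error, so a fold change is given below without a spread of its own, and differences between genes or between times were not tested. A call of higher or lower needed an adjusted p under 0.05 from the authors together with a change of over 1.5-fold (0.58 on the log2 scale). All 4 auxin comparisons share the untreated PRC1deg libraries. The 24 h libraries carry sample numbers of their own in the labels, so time and a possible separate run cannot be told apart for them. Untreated levels summed to 30450536 normalised reads in PRC1deg and 29474239 in PRC2deg, and the depth behind each single library is not known. All 11 stem cell markers measured had 802 or more untreated reads in PRC1deg, while of the 8 fibroblast markers Dcn and Lum had 0, Col3a1 had 3.29 and the highest, Thy1, had 603. In PRC2deg the stem cell markers had 1326 or more reads. Of the fibroblast markers there, Col1a1 had 1339, Thy1 308, Col3a1 238, Col1a2 223 and Pdgfrb 77.2. Dcn had 31.0, Postn 11.1 and Lum 5.35. The stem cell markers had median log2 fold changes of 0.15, 0.25, 0.17 and 0.16 after 2, 4, 8 and 24 h of auxin in the authors' deposited table. Of the 11, 1 was called higher at 4 h and at 8 h. That is 9.09% each time, against 14.8% and 25.6% of entries with 50 or more untreated reads. Among the fibroblast markers the authors' deposited table called Pdgfrb lower at 2 h (-0.83, adjusted p = 0.00548, DESeq2) and 4 h (-0.61, adjusted p = 0.041). It called Col1a2 higher at 8 h (1.01, adjusted p = 0.00795, DESeq2) and 24 h (1.09, adjusted p = 0.00476). Col1a2 had 44.9 untreated reads in PRC1deg, under the limit of 50 reads used below. The part of these markers in the values of the ribosomal protein genes was not tested.

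The 77 genes were read well in both lines. They held 237119 normalised reads in untreated PRC1deg cells, 0.779% of the total from 0.373% of the entries, and 278280 or 0.944% in untreated PRC2deg cells. Their median level per kilobase was 550.8 normalised reads in PRC1deg, against 36.4 for the 13499 entries with 50 or more untreated reads, and 810.6 in PRC2deg, against 34.6 for 13322 such entries. In each line 76 of the 77 lay above that median. The exception was Rpl3l, the paralogue of Rpl3 known from striated muscle, which had 28.8 reads in PRC1deg and 7.03 in PRC2deg. It was the only one of the 77 under 50 reads. The lengths in the tables span the gene bodies, introns included, and ran from 981 to 11772 bases with a median of 3164, against 26759 bases for the entries with 50 or more reads. Ribosomal protein genes have many near-identical processed copies in the mouse genome, and how reads were shared among such copies is not given in the sources used here, so the level of any one gene is uncertain to that extent.

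Levels differed widely, although most of these proteins enter the ribosome in equal numbers. In PRC1deg, Rpl4, which lines the polypeptide exit tunnel, was highest at 5034 normalised reads per kilobase. Rpl8 (3890), Rpl13a (2828), Rps20 (2781) and Rps3 (2770), whose protein sits where the mRNA enters the small subunit, were also among the highest. Apart from Rpl3l at 3.46, the lowest were Rpl29 (89.4), Rps19bp1 (92.5), the paralogue Rpl39l (124) and the retrocopy symbol Rps27rt (152). The 5 genes with the most reads held 28.5% of all reads of the 77. The order in PRC2deg was alike, with Rpl13a first at 4093 reads per kilobase, then Rpl8, Rps20, Rps9 and Rpl4, and Rps19bp1 and Rpl3l last. The rank correlation of the 2 lines' levels over the 77 genes was 0.81, a description of genes that share annotation, length and aligner in both lines. Without values per library, neighbours in this order could not be told apart.

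**Figure D1:**
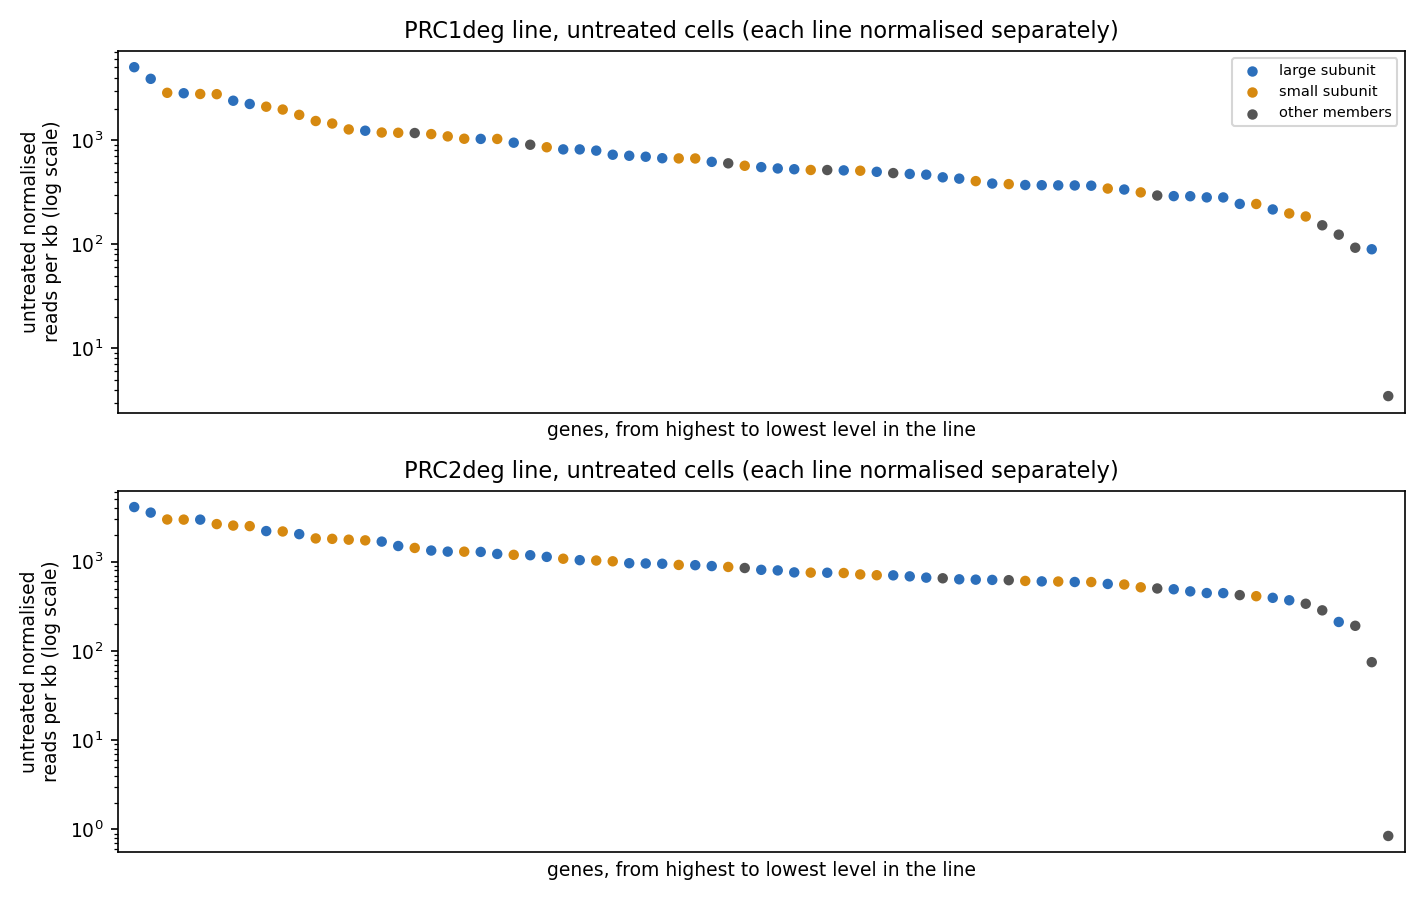
Untreated level of each of the 77 genes (normalised reads per kilobase, log scale) in PRC1deg (top) and PRC2deg (bottom), from highest to lowest within each line and coloured by subunit. Rpl4 led in PRC1deg at 5034 and Rpl13a in PRC2deg at 4093, and Rpl3l stood alone at the bottom of both.

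The comparison at 2 h of auxin asked what changed first after loss of RING1B. None of the 77 genes was called at 2 h, higher or lower, against 5.55% of all entries called higher and 0.255% called lower (4.16% higher among entries with 50 or more reads). At least 2 of the 77 (2.60%) had an unadjusted p under 0.05, by an upper limit worked back from the authors' adjusted values. Among the 13499 entries with 50 or more reads, at least 1574 (11.7%) did. The fold changes of the 77 were small and close together. The median log2 fold change of the 77 in the authors' deposited table was 0.25, or 1.19-fold, with quartiles of 0.20 and 0.28, against a median of 0.15 and quartiles of 0.05 and 0.25 for entries with 50 or more reads. All 77 values lay between 0.04 and 0.55, and 69 of them exceeded the median of those entries.

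Rps23, a protein of the decoding centre, had the highest 2 h value, a log2 fold change of 0.55 (adjusted p = 0.179 in the authors' deposited table, DESeq2). Rps27rt at 0.49, Rps6 at 0.40, Rpl14 at 0.37 and Rpl29 at 0.36 came next in the authors' deposited table. Rps6 encodes the small subunit protein that S6 kinases phosphorylate below mTOR. At the low end the authors' deposited table gave 0.05 for Rps15, 0.06 for Rps3a1, 0.08 for Rpl8, 0.11 for Rpl9 and 0.14 for Rpl34-ps1. Rps15 belongs to the decoding region of the small subunit and Rpl8 to the surroundings of the peptidyl transferase centre, as Rps23 belongs to the decoding region at the other end of the range.

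At 4 h the values spread apart, in these genes and in the table as a whole. The authors' deposited table called 5 of the 77 higher, 6.49%, and 0 lower, against 16.1% of all entries called higher, 0.13% called lower and 14.8% called higher among entries with 50 or more reads. The share called was thus below that of the table as a whole. The median log2 fold change of the 77 in the authors' deposited table was 0.46, or 1.37-fold, against 0.40 for entries with 50 or more reads, and 43 of the 77 exceeded that 0.40. The means were 0.43 for the 77 and 0.44 for those entries, so the small distance between the medians turned round with means. Values of the 77 ran from -0.04 to 0.86 with quartiles of 0.28 and 0.60. The quartiles of entries with 50 or more reads were 0.20 and 0.58, slightly further apart. Of the 77, 22 (28.6%) passed 1.5-fold whatever their p, against 24.8% of entries with 50 or more reads. Of the 77, 22 lay above the upper quartile of the entries with 50 or more reads and 12 below their lower quartile. At least 31 had an unadjusted p under 0.05, and 4880 of the 13499 entries with 50 or more reads did.

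The 5 genes called at 4 h were genes of both subunits and a retrocopy symbol. Rpl27a, the large subunit gene mutated in the sooty foot ataxia mouse, rose by a log2 fold change of 0.86 (adjusted p = 0.016 in the authors' deposited table, DESeq2). Rps23 rose by 0.85 (adjusted p = 0.0152, DESeq2) and Rps6 by 0.82 (adjusted p = 0.0286) in the authors' deposited table. Rpl15, a large subunit gene mutated in some human Diamond-Blackfan anaemia, rose by 0.80 (adjusted p = 0.0182 in the authors' deposited table, DESeq2). Rps27rt, the fifth, rose by 0.80 (adjusted p = 0.028 in the authors' deposited table, DESeq2). With the 4 h median of entries with 50 or more reads (0.40) subtracted, none of these 5 genes passed 1.5-fold.

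The opposite end at 4 h held genes at or near 0. The authors' deposited table gave log2 fold changes of -0.02 for Rpl8, -0.02 for Rps15, 0.01 for Rpl37rt and 0.06 for Rpl7a. Rps14, the small subunit gene whose loss marks the human 5q- syndrome, had 0.07 in the authors' deposited table. These genes had between 516 and 3890 normalised reads per kilobase in untreated PRC1deg cells. They were therefore not the poorly read ones.

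**Figure D2:**
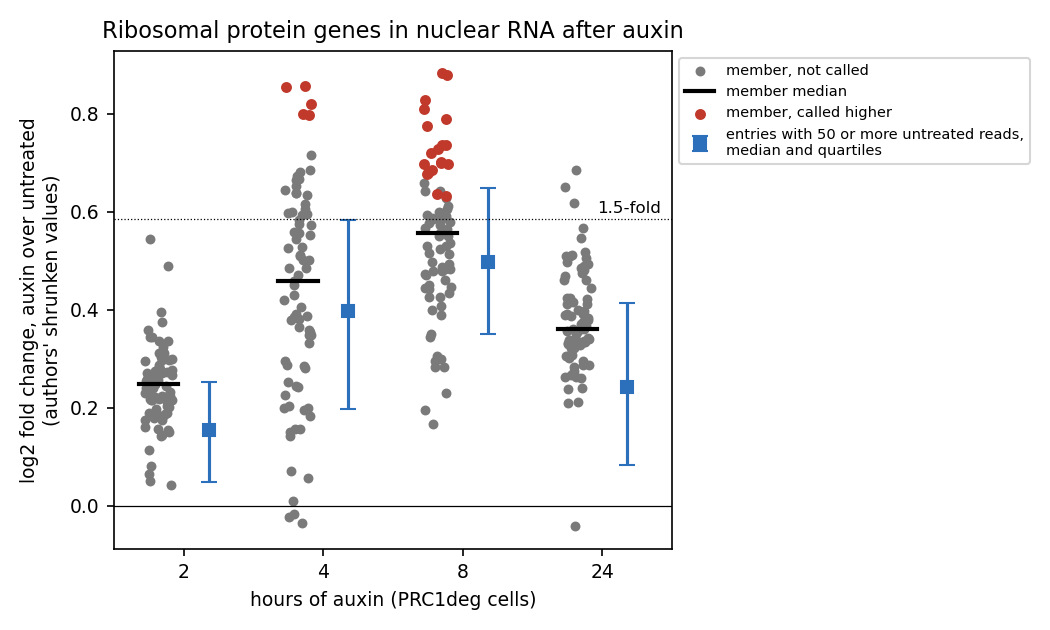
Authors' log2 fold change (auxin over untreated) of each of the 77 genes at 2, 4, 8 and 24 h, with calls in red, the median of the 77 as a bar and, beside it in blue, the median and quartiles of entries with 50 or more untreated reads. Values ran from 0.04 to 0.55 at 2 h and from -0.04 to 0.86 at 4 h, the median was highest at 8 h with 19 calls, and there were 0 calls at 24 h.

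At 8 h the median was the highest of the 4 times. The authors' deposited table called 19 of the 77 higher, 24.7%, and 0 lower, against 25.7% of all entries called higher, 0.0869% called lower and 25.6% called higher among entries with 50 or more reads. The share of ribosomal protein genes called was thus that of the whole table. The median log2 fold change in the authors' deposited table was 0.56, or 1.47-fold, for the 77 and 0.50 for entries with 50 or more reads, and 47 of the 77 exceeded that 0.50. The means were 0.55 and 0.56, again with the 77 below. All 77 values were positive, from 0.17 to 0.88, as were 96.7% of entries with 50 or more reads. Of the 77, 30 (39.0%) passed 1.5-fold whatever their p, against 34.2% of those entries. At least 45 of the 77 had an unadjusted p under 0.05, as did 6554 of the 13499 entries. The 8 h value was the highest of the 4 times in 52 of the 77 genes, the 4 h value in 20, the 24 h value in 5 and the 2 h value in 0. The median of entries with 50 or more reads was also highest at 8 h (0.15, 0.40, 0.50 and 0.24 at 2, 4, 8 and 24 h). The same count over all entries is not given here.

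Among the calls at 8 h, 11 were large subunit genes, 5 small subunit genes, 1 a paralogue and 2 retrocopy or pseudogene symbols. Rpl3, whose protein reaches towards the peptidyl transferase centre, rose most, by 0.88 (adjusted p = 0.00898 in the authors' deposited table, DESeq2). It was the only one of the 77 with an adjusted p under 0.01 at any time. Neither Rpl3 nor any other of the 19 passed 1.5-fold once the 8 h median of entries with 50 or more reads was subtracted. Rpl29, a large subunit gene that mice can live without, rose by 0.88 (adjusted p = 0.0102 in the authors' deposited table, DESeq2). Rpl38, the gene of the Tail-short mouse, in which translation of Hox messages is impaired, rose by 0.78 (adjusted p = 0.0166 in the authors' deposited table, DESeq2). In the authors' deposited table Rpl27a had 0.83, Rps12 0.81, Rps27rt 0.79, Rps16 0.74, Rpl34-ps1 0.74, Rpl6 0.73, Rpl15 0.72, Rps23 0.70 and Rps6 0.70. Rps10, Rpl21, Rpl23a, Rplp2, Rpl13, Rpl7l1 and Rpl37 completed the calls with values of 0.63 to 0.70 in the authors' deposited table. Rpl29, Rps27rt, Rps16 and Rps10 are among the 7 genes of the 77 with the lowest untreated level per kilobase in PRC1deg.

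Of the 19 genes called at 8 h, 14 were not called at 4 h. Among entries with 50 or more reads, calls of higher rose from 1995 at 4 h to 3450 at 8 h. The overlap of those calls is not given here, so the 14 are not a trait of these genes. Among the 14, the authors' deposited table gave Rpl38 0.51 at 4 h and 0.78 at 8 h, Rpl6 0.40 and 0.73, and Rps10 0.36 and 0.70. For Rps23 and Rps6, the highest small subunit genes at 4 h, the authors' deposited table gave 0.85 and 0.82 there and 0.70 for both at 8 h. These differences between times were not tested. At the low end of 8 h stood Rpl3l at 0.17, Rps15 at 0.20, Rps27l at 0.23, Rps20 at 0.28 and Rpl8 at 0.30 in the authors' deposited table. Rps15 and Rpl8 were thus at the low end at both times.

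At 24 h none of the 77 was called, higher or lower, against 11.5% of all entries called higher, 0.612% called lower and 9.08% called higher among entries with 50 or more reads. At least 15 of the 77 had an unadjusted p under 0.05, and 2930 of the 13499 entries did. The median log2 fold change in the authors' deposited table was 0.36, or 1.28-fold, for the 77 against 0.24 for entries with 50 or more reads, and 72 of the 77 exceeded that median. The quartiles were close together, 0.32 and 0.44, against 0.08 and 0.41 for those entries. Rpl29 at 0.68 (adjusted p = 0.0599 in the authors' deposited table, DESeq2) and Rpl15 at 0.65 (adjusted p = 0.0605) came nearest to a call. Rps27rt at 0.62, Rps19bp1 at 0.57 and Rps23 at 0.55 followed in the authors' deposited table. Among the lowest with 50 or more reads were Rpl39l and Rps15 at 0.21, Rpl8 at 0.24 and Rps10 at 0.26 in the authors' deposited table. The 5 genes with their highest value at 24 h, Rps14, Rps15, Rps20, Rps21 and Rps26, all belong to the small subunit, and the authors' deposited table gave them 0.49, 0.21, 0.30, 0.49 and 0.52 at that time.

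**Figure D3:**
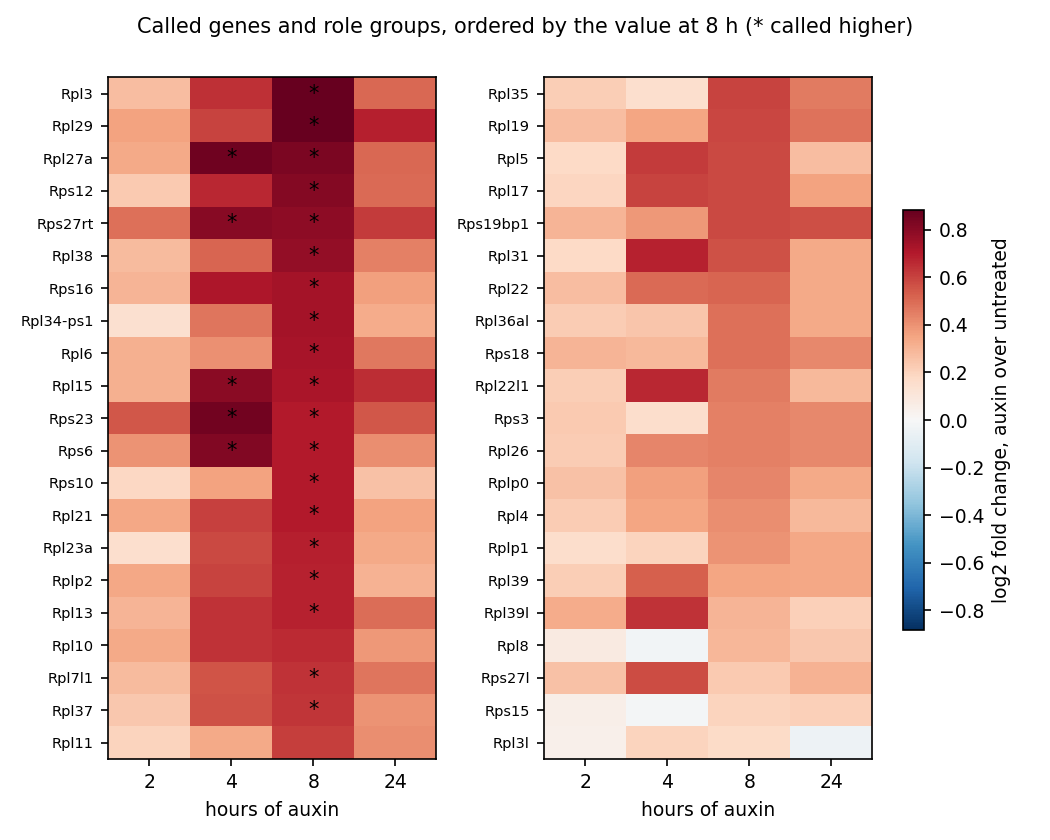
Authors' log2 fold change (auxin over untreated) of the 42 genes that were called at any time or belong to a role group described here (such as the P stalk, the exit tunnel or the paralogues), at 2, 4, 8 and 24 h, ordered by the value at 8 h from Rpl3 (0.88) to Rpl3l (0.17), with calls starred. The stars stand at 4 h in 5 genes and at 8 h in 19, and Rpl8 and Rps15 are close to 0 at 4 h.

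Over the 4 times, Rps27a, which encodes a fusion of ubiquitin with a small subunit protein, lay closest to the profile of the medians of the 77. The authors' deposited table gave it log2 fold changes of 0.22, 0.46, 0.56 and 0.36 after 2, 4, 8 and 24 h. Those at 4, 8 and 24 h are themselves the medians of the 77, so its closeness is partly built in. Among the genes farthest from that profile were Rpl3l, Rps15 and Rpl8 on the low side and Rps23 on the high side. Rps15 had 0.05, -0.02, 0.20 and 0.21 and Rpl8 had 0.08, -0.02, 0.30 and 0.24 in the authors' deposited table. Rps19, the gene most often mutated in human Diamond-Blackfan anaemia, had 0.22, 0.23, 0.45 and 0.41, and Rpsa, also known as the laminin receptor precursor, had 0.28, 0.20, 0.50 and 0.33 in the authors' deposited table.

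Grouped by subunit, the medians lay close together except at 4 h. Large subunit genes had medians of 0.25, 0.50, 0.58 and 0.36 at 2, 4, 8 and 24 h, and small subunit genes 0.24, 0.37, 0.53 and 0.39, in the authors' deposited table. The calls at 8 h were 11 of 39 large and 5 of 28 small subunit genes, and those at 4 h were 2 of each. These are 28.2% and 17.9% at 8 h, around the 25.6% of entries with 50 or more reads, and 5.13% and 7.14% at 4 h, both under the 14.8% of such entries. The paralogues had medians of 0.24, 0.56, 0.38 and 0.30, and thus the highest of these groups at 4 h and the lowest at 8 h. Rpl22l1 had 0.66 at 4 h and 0.46 at 8 h, Rpl39l had 0.64 and 0.30, and Rps27l, a p53 target, had 0.57 and 0.23 in the authors' deposited table, without a call. Rpl7l1 was called at 8 h with 0.64 in the authors' deposited table. The authors' deposited table gave Rpl36al 0.24 at 4 h and 0.49 at 8 h. None of these differences between groups or times was tested.

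The genes were also grouped by where their proteins sit in the ribosome, and differences within these groups were not tested. The groups are small, and 14.8% and 25.6% of entries with 50 or more reads were called higher at 4 and 8 h. Single calls or their absence are therefore no trait of a position. Around the peptidyl transferase centre, Rpl3 had log2 fold changes of 0.64 at 4 h and 0.88 at 8 h, Rpl10, which is among the last to join, had 0.63 and 0.66, and Rpl8 had -0.02 and 0.30 in the authors' deposited table. In the P stalk, which recruits elongation factors, Rplp2 was called at 8 h with 0.68, while Rplp0 had 0.43 and Rplp1 had 0.40 in the authors' deposited table. Rpl5 and Rpl11, which with 5S ribosomal RNA form the particle that binds MDM2, were not called, and the authors' deposited table gave them 0.61 and 0.33 at 4 h and 0.58 and 0.61 at 8 h.

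Of the 9 genes whose proteins line or surround the exit tunnel, 1 was called, Rpl23a at 8 h with 0.69 in the authors' deposited table. That is 11.1%, against 25.6% of entries with 50 or more reads. The others of that group, Rpl4, Rpl17, Rpl19, Rpl22, Rpl26, Rpl31, Rpl35 and Rpl39, ran from 0.15 (Rpl35) to 0.68 (Rpl31) at 4 h and from 0.35 to 0.60 at 8 h by the authors' deposited table. Among the 4 genes at the mRNA entry and decoding sites, Rps23 was called at 4 and 8 h. That is 25% each time, against 14.8% and 25.6% of entries with 50 or more reads. Rps3 had 0.16 and 0.45, Rps18 0.29 and 0.48 and Rps15 -0.02 and 0.20 at these times in the authors' deposited table.

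The untreated level went with the size of the change among the 77 genes at 4 and 8 h. The genes were divided by PRC1deg level per kilobase into 4 classes of nearly equal size. In the authors' deposited table the 19 genes of the highest class (1145 to 5034) had a median log2 fold change of 0.20 at 4 h, against 0.49, 0.51 and 0.50 in the other classes, from low to high. At 8 h the medians ran 0.64, 0.59, 0.53 and 0.45 from the lowest class to the highest in the authors' deposited table. The calls at 8 h came in the same order, 8 of 20, 7 of 19, 3 of 19 and 1 of 19, and that 1 was Rps12. These are 40%, 36.8%, 15.8% and 5.26%, against 25.6% of entries with 50 or more reads. At 4 h the calls were 2, 2, 1 and 0. These are 10%, 10.5%, 5.26% and 0%, against 14.8% of entries with 50 or more reads. At 2 h (0.27, 0.22, 0.27 and 0.23) and at 24 h (0.36, 0.36, 0.39 and 0.34) the medians showed no such order in the authors' deposited table.

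Level and fold change are computed from the same untreated libraries. With the classes taken from the untreated PRC2deg libraries, which enter no auxin comparison, the highest class still had the lowest median. The authors' deposited table gave it 0.25 at 4 h, against 0.49, 0.50 and 0.56 in the other classes from low to high, and 0.47 at 8 h, against 0.59, 0.58 and 0.57. The calls at 8 h were then 6 of 20, 6 of 19, 5 of 19 and 2 of 19 from the lowest class to the highest. Among entries with 50 or more reads the share called higher at 8 h was 25.6%. The rank correlation of fold change with level over the 77 genes was -0.35 at 4 h and -0.47 at 8 h with the PRC1deg level, and -0.24 and -0.27 with the PRC2deg level. Over all entries with 50 or more reads it was 0.04 and -0.04 with the PRC1deg level. Other entries in the level range of the highest class numbered 96, and the authors' deposited table gave them medians of 0.41 at 4 h and 0.47 at 8 h. The highest class held Rpl8, Rps15, Rps14, Rps9, Rps3 and Rpsa, all between -0.02 and 0.20 at 4 h, but also Rps4x at 0.67, Rps12 at 0.67 and Rps24 at 0.59 in the authors' deposited table. Highly expressed genes thus included both low and high values.

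**Figure D4:**
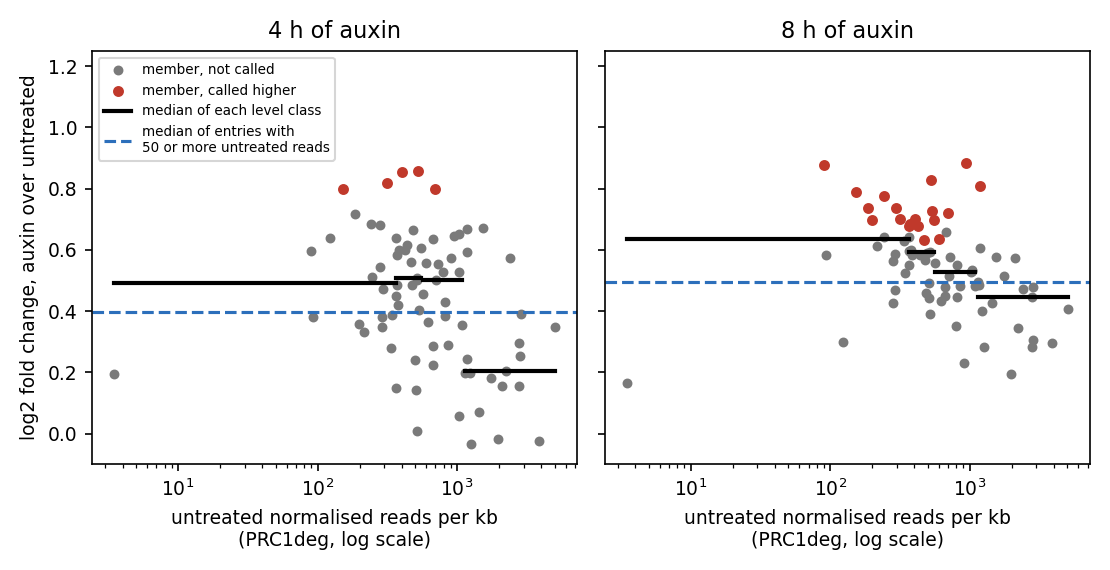
Authors' log2 fold change of each of the 77 genes at 4 h (left) and 8 h (right) of auxin against its untreated level in PRC1deg (normalised reads per kilobase, log scale), with the median of each of 4 level classes as a bar and the median of entries with 50 or more reads as a dashed line. At 4 h the highest class has a median of 0.20 and the other classes 0.49 to 0.51, and at 8 h the bars step down from 0.64 to 0.45.

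Gene length accompanied the distance of the ribosomal protein genes from the rest of the table at 24 h. At that time entries of up to 5000 bases had a median log2 fold change of 0.35, those of 5000 to 10000 bases 0.34, those of 20000 to 50000 bases 0.22 and those over 100000 bases 0.15 in the authors' deposited table. The 65 ribosomal protein genes of up to 5000 bases had 0.36 and the 11 of 5000 to 10000 bases 0.37, so each lay near entries of its own length. Set against the 2872 entries of at most 10000 bases, the median of the 77 was higher by 0.07, 0.10, 0.04 and 0.02 after 2, 4, 8 and 24 h. The distances from all entries with 50 or more reads were 0.09, 0.06, 0.06 and 0.12. At 24 h 44 of the 77 exceeded the median of the short entries and 72 that of all entries with 50 or more reads. At 4 h the order by length ran the other way in the table, from 0.34 in entries of up to 5000 bases to 0.45 in those over 100000, and the ribosomal protein genes of up to 5000 bases had 0.46 in the authors' deposited table.

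**Figure D5:**
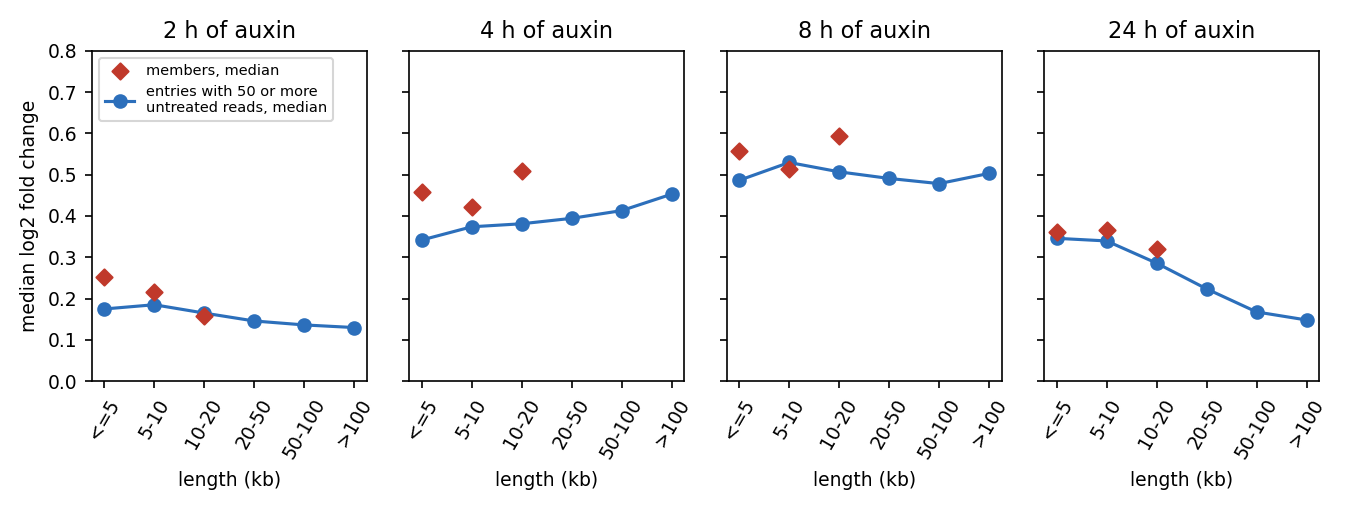
Median log2 fold change of entries with 50 or more untreated reads in 6 classes of length (blue) and of the ribosomal protein genes in the same classes (red) at 2, 4, 8 and 24 h of auxin; the class of 10 to 20 kb holds 1 ribosomal protein gene. At 24 h the blue line falls from 0.35 to 0.15 with length and the red points lie on or close to it.

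The other genes of ribosome production had higher shares of calls than the ribosomal protein genes at 8 h. Of 65 biogenesis factors, which process ribosomal RNA and assemble the subunits, the authors' deposited table called 0, 20, 33 and 5 higher after 2, 4, 8 and 24 h, with medians of 0.26, 0.58, 0.65 and 0.40. Nop2, an rRNA methyltransferase, rose by 0.97 at 8 h (adjusted p = 0.00129 in the authors' deposited table, DESeq2), and Nop16, Ddx56 and Ebna1bp2 rose by 0.89, 0.87 and 0.84. Of 14 genes of the RNA polymerase I machinery, which transcribes ribosomal RNA, the authors' deposited table called 4 higher at 4 h and 9 at 8 h, with Taf1c (0.97), Taf1a (0.82), Polr1b (0.79) and Cd3eap (0.72) among the 9. Of 12 host genes of small nucleolar RNAs, the authors' deposited table called 1 higher at 4 h and 5 at 8 h, Snhg5 both times (0.84 and 0.85) and Gas5, Snhg12 and Snhg4 at 8 h with 0.76, 0.72 and 0.74. At 4 and 8 h the calls are 30.8% and 50.8% of the biogenesis factors and 28.6% and 64.3% of the polymerase I genes. They are 8.33% and 41.7% of the host genes, against 14.8% and 25.6% of entries with 50 or more reads. At 24 h the calls are 7.69% of the biogenesis factors, against 9.08% of such entries. The polymerase I and host genes had 0 calls at 2 and 24 h. None of these 3 lists had a gene called lower at any time, nor a call in either direction once the median was subtracted. Whether they differ from the ribosomal protein genes was not tested.

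Translation factors and mitochondrial ribosomal proteins were also followed, and their distance from the 77 genes was not tested. Of 35 initiation factors the authors' deposited table called 0, 5, 13 and 4 higher after 2, 4, 8 and 24 h, with a median of 0.58 at 8 h. These are 14.3%, 37.1% and 11.4% at 4, 8 and 24 h, against 14.8%, 25.6% and 9.08% of entries with 50 or more reads. At 8 h the authors' deposited table called Eif2b1 (0.83), Eif2b2 (0.78), Eif3g (0.76) and Eif4h (0.67) among others. Of 12 elongation factors and other messages with the same pyrimidine start, the authors' deposited table called 1 higher at 4 h and 4 at 8 h, when Vim, Eef1d, Nap1l1 and Eef1g had 0.62 to 0.69 and the median was 0.55. These calls are 8.33% and 33.3% of the list. Of 72 genes of the mitochondrial ribosome the authors' deposited table called 0, 15, 14 and 4 higher after 2, 4, 8 and 24 h, with medians of 0.22, 0.50, 0.52 and 0.33. The calls at 4, 8 and 24 h are 20.8%, 19.4% and 5.56% of the list. Mrps12 (0.86), Mrpl12 (0.84), Mrpl17 (0.78) and Mrpl43 (0.73) were among the calls at 8 h. Rack1 and Fau, ribosomal protein genes outside the symbol rule, were not called at any time, and the authors' deposited table gave them 0.50 and 0.36 at 8 h.

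Of 17 regulators of ribosomal protein output, Myc and Larp1 were called. The calls at 2, 4, 8 and 24 h are 5.88%, 5.88%, 11.8% and 0% of the list. Entries with 50 or more reads had 4.16%, 14.8%, 25.6% and 9.08% called higher. Myc, which activates ribosomal protein and biogenesis genes, rose by log2 fold changes of 0.99 at 2 h (adjusted p = 0.000162 in the authors' deposited table, DESeq2), 1.04 at 4 h and 1.36 at 8 h, and had 0.48 at 24 h without a call. It was the one gene of the ribosome and translation lists still called at 2, 4 and 8 h with the median of entries with 50 or more reads subtracted. At 24 h that left 1 initiation factor, Eif2s2 (1.04 before subtraction, adjusted p = 0.00296 in the authors' deposited table, DESeq2), and 1 mitochondrial ribosomal protein gene, Mrps34 (0.93, adjusted p = 0.00816), both named after their values were seen. Larp1, which holds back the messages with a pyrimidine start, rose by 0.63 at 8 h (adjusted p = 0.0383 in the authors' deposited table, DESeq2). The part of Myc in the values of the ribosomal protein genes was not tested.

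The entries whose 4 values were most like the medians of the 77 were sought by Euclidean distance among 8440 other entries with 500 or more reads. They were Rnf6, Znrd1, Brd2, Gle1 and Mrpl11, at distances of 0.016 to 0.041 on the log2 scale. For Rnf6, the closest, the authors' deposited table gave 0.24, 0.45, 0.56 and 0.37 after 2, 4, 8 and 24 h. The likeness rests on 4 comparisons with the same untreated libraries.

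After 2 h of dTAG-13 in PRC2deg cells, none of the 77 genes was called, and 0% of all entries were called higher and 0% lower (0% also among entries with 50 or more reads) by DESeq2 as fitted by the authors. All 77 had an adjusted p of 0.999956, and no entry had a lower one, from which at most 975 of 19506 entries can have had an unadjusted p under 0.05. All fold changes lay almost at 0: the largest of the 77 in absolute value was 3.42e-05 on the log2 scale in the authors' deposited table, in Rps18. Of the 77, 60 (77.9%) lay below 0, against 54.9% of entries with 50 or more reads. Short entries leaned the same way, with 67.7% below 0 in those of up to 5000 bases and 67.5% in those of 5000 to 10000 bases. Over all 19506 entries the largest absolute value was 0.000985. Shrunken values this close to 0 give a sign only. Neither the size of a change nor its absence can be read from them. The difference from the 2 h auxin comparison was not tested, since line, agent and library kit differ.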

How the data were processed

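Nuclear, ribosomal RNA-depleted, directional RNA-seq of 21 libraries in 7 groups was aligned and fitted by the authors. The submitters' processing notes name Bowtie2, STAR, SAMtools, bedtools and DESeq2 and the mm10 and dm6 builds, and the sources used here state no versions. Deposited by the authors were 5 tables, 1 per comparison, whose log2 fold changes have the form of shrunken estimates and whose p-values are adjusted (taken as Benjamini-Hochberg, the default of DESeq2). The level column deposited by the authors, headed as a mean RPKM, was treated as a signal of normalised reads per kilobase, because values times length over 1000 sum to about the depth of a library. Lengths are in bases, as deposited by the authors. All columns were matched (0 unmatched).

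Counts, medians, quartiles and ranks were computed here with Python 3.11.15, numpy 2.4.6 and pandas 2.3.3, and plots with matplotlib 3.10.9. The planned edgeR fit needed counts per library, which the tables do not hold, so calls rest on the authors' adjusted p under 0.05 and a fold over 1.5. An upper limit of the unadjusted p was derived from the deposited adjusted ones and tested on simulated p-values. Symbols in the tables were used as they stand, and 194 entries whose symbol differs between tables were named as in the 2 h table, none of them a ribosomal protein entry.

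Genes named were every called gene, the 5 highest and 5 lowest per time among those with 50 or more reads, the role groups, the 5 highest levels, Rpsa, Rps6, Rps14, Rps19, Rps27a and Rpl38, and up to 4 genes per other list by adjusted p at 8 h. Some genes that this rule names are not reported here, so lists of the highest or lowest genes are not complete. Other genes named as examples were chosen after their values were seen. The genes and lists were chosen with earlier results of these data known. Alternatives were other thresholds, centring, other reference medians, every entry, and subsets by kind or reads.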

Additional observations from a re-analysis of the deposited data

How the results depend on the processing

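Calls depended on the threshold. At 4 h the 5 calls became 0 with a fold over 2, 0 with an adjusted p under 0.01 and 0 with fold changes centred on the median of entries with 50 or more reads. At 8 h the 19 calls became 0, 1 and 0 under the same 3 alternatives. The distance of the median of the ribosomal protein genes from the reference median at 24 h, 0.12, was 0.0194 against entries of at most 10000 bases. With means in place of medians, an alternative chosen after seeing the data, the distance turned to -0.00817 at 4 h and -0.0111 at 8 h. Over all alternatives the distance ran from 0.0618 to 0.14 at 2 h (0.094 as reported), from -0.00817 to 0.134 at 4 h (0.060), from -0.0111 to 0.118 at 8 h (0.060) and from 0.0194 to 0.173 at 24 h (0.12). The counts of calls stayed within 1.5 times under the other alternatives run. No paired analysis was possible because the tables hold no value per library, and for that reason no replicate could be left out. The depth of single libraries is unknown, so how far depth limits the calls could not be measured.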
